A study of Mus musculus with 25 samples.

Results

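Mucins are long glycoproteins whose serine, threonine and proline-rich stretches carry dense O-linked sugars. The 8 mucin genes described here, of 55421 genes in the count table, were taken by symbol. They are the gel-forming mucins Muc5ac, Muc5b and Muc2, the membrane mucins Muc1, Muc4, Muc16 and Muc20, and the small mucin-like gene Mucl1. Gel-forming mucins are linked end to end through cysteine-rich domains, packed dehydrated into granules and released to make the mucus gel that cilia sweep out of the airway. Membrane mucins stay on the cell surface as a glycan brush, and their short tails take part in signalling. In the mouse airway Muc5b is made by secretory cells at rest, whereas Muc5ac is the mucin known for its induction by interleukin-13 in allergic inflammation.

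Lung RNA was sequenced from 25 female wild-type mice, 5 in each of 5 groups. The mice are of a C57BL/6 strain, written C57BL/6J in the sample labels and C57BL/6cmdb in the design text. The 12-week model has mice given 100 µg of house dust mite (HDM) extract intranasally and mice labelled as saline controls. The 2-week model has saline controls, mice given 10 µg and mice given 100 µg of the extract. HDM extract carries mite allergens together with microbial material and is widely used to model allergic airway inflammation. One label calls the controls untreated, while the protocol says that they received saline. The age of the mice, the dosing schedule and any batch are not given in the sources used here.

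Values are counts per 1000000 counts (CPM) with library sizes scaled by TMM, and a difference counted as called where edgeR's quasi-likelihood test, adjusted over all 19654 genes tested, gave a p under 0.05. The 20 libraries outside the saline group at 2 weeks held 28911540 to 51914710 counts. The saline libraries at 2 weeks held 7231128 to 46167456, and the shallowest, replicate 4, stood apart with 27.8% ribosomal RNA and 9.80% mitochondrial counts. Alveolar type 2 cell markers summed to between 13629 and 21067 CPM over all libraries, as a lung sample should hold, while squamous oesophageal markers reached at most 0.470 CPM. The lungs labelled saline at 12 weeks went against their label. Clca1, a protein secreted by goblet cells in allergic airways, averaged 1433 ± 475 CPM in HDM lungs at 12 weeks and 1899.5 ± 702 CPM in the lungs labelled saline, against 17.5 ± 20.3 CPM in saline lungs at 2 weeks (SD, n = 5 each). Itln1, a goblet cell lectin, averaged 4.04 and 6.73 CPM in those 12-week groups and had 0 counts in saline lungs at 2 weeks. Every direction drawn from the lungs labelled saline at 12 weeks therefore rests on a label in doubt. Between 12 and 2 weeks, length of the model, age and any processing run cannot be told apart.

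The mucins differ in the protein stretches that carry sugar and those that link chains, so these stretches of their coding sequence are shown for the genes on which the results turn. Coding sequences are those of GENCODE M21 on GRCm38, which gives a complete one for 7 of the 8 genes and an incomplete one for Muc2. Serine, threonine and proline codons made up 31.2% of the codons of Muc5ac and 33.8% of Muc5b, against 44.1% in Muc1, 44.8% in Muc4, 38.8% in Muc16, 43.5% in Muc20 and 22.8% in Mucl1. Below is the stretch of 50 codons within 1 exon that holds most of them, with those codons in capitals, read 5′ to 3′ along the gene. They number 37 in Muc5ac, 34 in Muc5b, 33 in Muc1, 33 in Muc4 and 15 in Mucl1.
Muc5ac, chr7:141807517-141807666, plus strand: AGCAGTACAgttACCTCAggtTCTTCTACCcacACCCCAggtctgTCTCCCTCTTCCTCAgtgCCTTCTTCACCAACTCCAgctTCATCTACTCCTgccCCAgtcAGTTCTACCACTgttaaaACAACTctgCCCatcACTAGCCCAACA
Muc5b, chr7:141858632-141858781, plus strand: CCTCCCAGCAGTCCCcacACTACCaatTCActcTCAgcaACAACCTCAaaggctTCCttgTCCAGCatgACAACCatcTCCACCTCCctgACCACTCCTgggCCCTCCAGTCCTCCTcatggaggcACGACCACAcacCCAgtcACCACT
Muc1, chr3:89229961-89230110, plus strand: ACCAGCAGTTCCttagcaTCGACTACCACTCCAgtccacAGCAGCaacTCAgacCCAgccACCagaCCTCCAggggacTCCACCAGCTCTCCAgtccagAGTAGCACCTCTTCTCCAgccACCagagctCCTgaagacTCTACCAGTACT
Muc4, chr16:32750208-32750357, plus strand: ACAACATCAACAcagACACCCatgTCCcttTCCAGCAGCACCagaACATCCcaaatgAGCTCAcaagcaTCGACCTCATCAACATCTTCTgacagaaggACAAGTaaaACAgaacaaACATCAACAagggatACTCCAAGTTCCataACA
Mucl1, chr15:103753651-103753800, minus strand: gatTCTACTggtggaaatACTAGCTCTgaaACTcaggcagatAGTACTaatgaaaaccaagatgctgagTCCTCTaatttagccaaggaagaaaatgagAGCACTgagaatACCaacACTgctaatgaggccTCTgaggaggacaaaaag

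Cysteine codons, which mark the domains that link gel-forming chains, made up 7.4% of the codons of Muc5ac and 6.3% of Muc5b, against 0.5 to 1.4% in the membrane mucins and 0.5% in Mucl1. The stretches of 50 codons with most cysteine hold 9 in either gel-forming gene, in capitals here, and 9 also in Muc4, against 2 or fewer in Muc1, Muc16, Muc20 and Mucl1. The gel-forming stretches are shown, and the pair of stretches has the same letter at 133 of 150 places.
Muc5ac, chr7:141803318-141803467, plus strand: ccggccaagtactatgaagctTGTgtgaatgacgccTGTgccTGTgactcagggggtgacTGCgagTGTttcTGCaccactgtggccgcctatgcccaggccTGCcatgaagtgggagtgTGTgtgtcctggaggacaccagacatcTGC
Muc5b, chr7:141855502-141855651, plus strand: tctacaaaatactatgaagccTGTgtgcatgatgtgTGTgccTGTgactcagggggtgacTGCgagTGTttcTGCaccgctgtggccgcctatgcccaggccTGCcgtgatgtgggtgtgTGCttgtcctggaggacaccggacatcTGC
Muc5ac also carries a tandem repeat of 48 bases, or 16 codons, and 2 neighbouring units, at chr7:141808651-141808746 on the plus strand, match in 47 of 48 bases. The base that differs is in capitals in the second unit.
Muc5ac repeat, first unit: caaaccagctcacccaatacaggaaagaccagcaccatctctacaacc
Muc5ac repeat, second unit: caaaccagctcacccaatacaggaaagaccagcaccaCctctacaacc
Sequences of 50 bases that recur within the same gene made up 24.0% of Muc5ac and 22.8% of Muc5b, against 11.0% of Muc4 and at most 2.1% of the other mucins. How the authors' counter treated reads that match more than 1 place in a gene is not given in the sources used here.

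Muc5ac, Muc5b and Muc2 lie together on chromosome 7 of GRCm38 on the plus strand. Muc2 (ENSMUSG00000025515) spans chr7:141690340-141754693, Muc5ac (ENSMUSG00000037974) chr7:141788972-141819231 and Muc5b (ENSMUSG00000066108) chr7:141839070-141873084. Muc5ac, the mucin of goblet cells, held 41.8, 113, 38.1, 37.8 and 42.7 CPM in HDM lungs at 12 weeks. Lungs labelled saline at 12 weeks held 139, 127, 64.8, 107 and 43.7 CPM. All 10 lungs of the 12-week model lay above all 15 of the 2-week model. At 2 weeks Muc5ac stood at 0.940, 0.746, 0.900, 4.37 and 0.934 CPM with saline, at 1.63, 1.01, 0.538, 2.16 and 1.01 CPM with 10 µg, and at 0.530, 2.14, 1.26, 3.68 and 4.36 CPM with 100 µg. Those 3 groups overlapped, and the highest saline value belonged to replicate 4, the shallow library, from 20 counts. Muc5ac rose in lungs labelled saline at 12 weeks against saline at 2 weeks by 6.51 log2 units (SE 0.55, adjusted p = 3.35e-09), or 91.1-fold. Without replicate 4 of the saline lungs at 2 weeks the rise was 6.77. With 100 µg it rose by 4.52 (SE 0.47, adjusted p = 2.58e-07), 22.9-fold, in 12-week against 2-week lungs. In bulk lung, more cells that make a transcript and more of it per cell cannot be told apart.

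**Figure D1:**
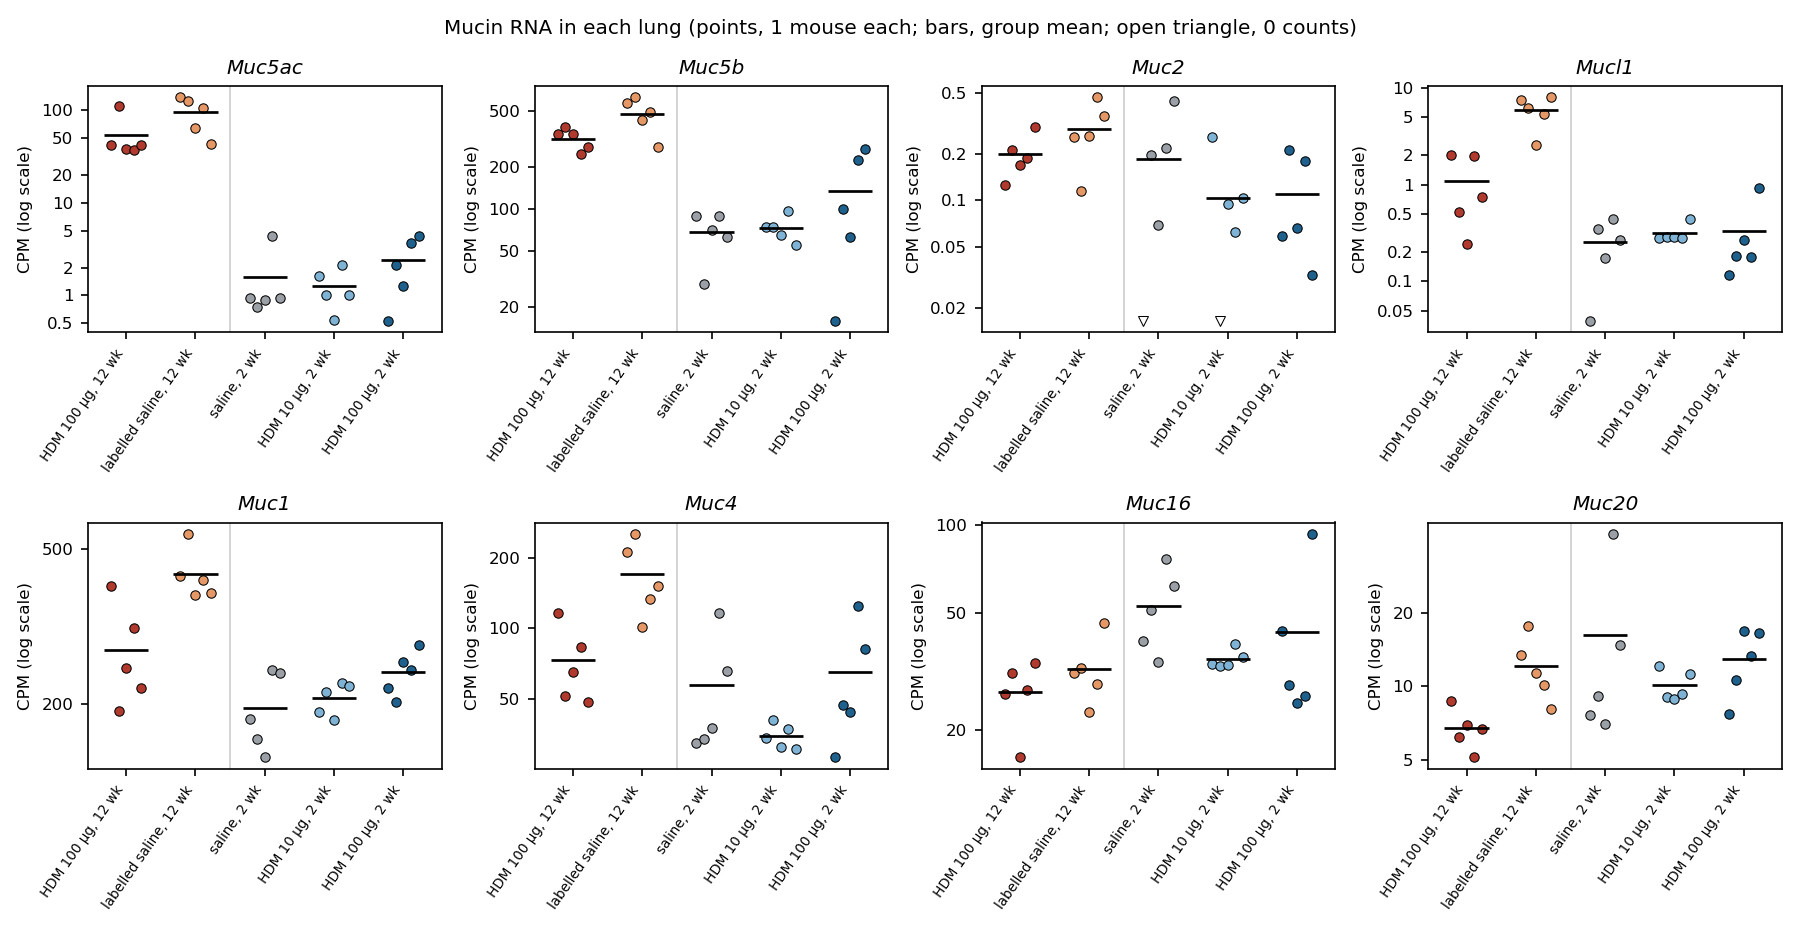
RNA of each of the 8 mucin genes in CPM (log scale) in every lung, 1 point per mouse and a bar at the group mean, with the 12-week groups left of the grey line and the 2-week groups in order of dose right of it. Muc5ac lies between 37.8 and 139 CPM in all 12-week lungs and at or below 4.37 CPM in all 2-week lungs, while Muc16 and Muc20 show no such step upward; open triangles mark libraries with 0 counts of Muc2.

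Muc5b, the mucin made at rest, was already abundant at 2 weeks and had smaller fold changes. It held 341, 385, 341, 247 and 276 CPM in HDM lungs at 12 weeks, against 571, 628, 429, 492 and 278 CPM in the labelled saline lungs of that model. At 2 weeks it stood at 88.4, 29.1, 70.6, 89.2 and 63.1 CPM with saline and at 74.1, 74.5, 65.6, 96.1 and 55.6 CPM with 10 µg. With 100 µg at 2 weeks the values were 15.9, 99.3, 62.6, 223 and 267 CPM. That group was the most spread out: replicate 1 was the lowest of all 25 lungs, and replicate 5 reached into the range of the HDM lungs at 12 weeks. Muc5b rose by 2.83 (SE 0.45, adjusted p = 1.3e-05), 7.11-fold, in lungs labelled saline at 12 weeks against saline at 2 weeks, with no overlap. In HDM lungs it rose by 1.25 (SE 0.43, adjusted p = 0.0227), 2.38-fold, at 12 against 2 weeks. That second call was lost without replicate 2 or 3 of the 100 µg lungs at 2 weeks (adjusted p = 0.0555 and 0.0669), without replicate 2 of the HDM lungs at 12 weeks (adjusted p = 0.0515) and in a fit of those groups alone (adjusted p = 0.0841).

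The balance of the gel-forming pair stood apart between the models, as a description with no test. Compared per kilobase of exon, Muc5ac made up 18.5 ± 6.14% of the summed level of Muc5ac and Muc5b in HDM lungs at 12 weeks and 21.2 ± 3.42% in lungs labelled saline at 12 weeks. At 2 weeks the share was 3.01 ± 2.04% with saline, 2.29 ± 0.804% with 10 µg and 2.91 ± 0.906% with 100 µg (SD, n = 5 each). The lowest 12-week lung, at 13.5%, lay above the highest 2-week lung, at 6.39%. As a ratio per kilobase, Muc5b exceeded Muc5ac by 2.46 to 6.42-fold in 12-week lungs and by 14.7 to 87.7-fold in 2-week lungs. The 6.39% and the 14.7-fold both belonged to saline replicate 4, the shallow library. The next 2-week lung, replicate 1 with 100 µg, stood at 4.44% and 21.5-fold. Muc5b was thus the higher gel-forming mucin, per length, in all 25 lungs.

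**Figure D2:**
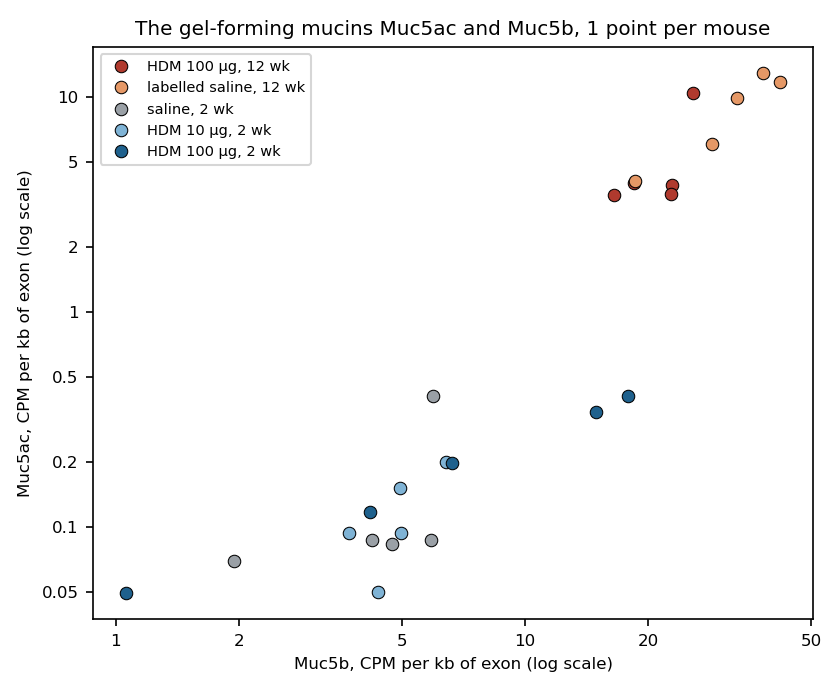
Level of Muc5ac against that of Muc5b in CPM per kilobase of exon (both axes log), 1 point per mouse, coloured by group. The 10 lungs of the 12-week model form a separate group at the upper right, where Muc5ac makes up 13.5 to 28.9% of the pair. Replicates 4 and 5 of the 100 µg lungs at 2 weeks come nearest to them in Muc5b, with Muc5ac at 0.342 and 0.406 CPM per kilobase.

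Muc2, the main gel-forming mucin of the intestine, was near the limit of detection. Its summed counts over 5 libraries were 38 in HDM lungs and 48 in those labelled saline at 12 weeks. At 2 weeks the sums were 32 with saline, 21 with 10 µg and 19 with 100 µg. Single libraries held 0 to 20 counts. Saline replicate 1 and 10 µg replicate 2 of the 2-week model held 0, which allows up to 0.117 and 0.0572 CPM, taken as 3 counts, for counting error only. Muc2 did not pass the filter on low counts and was not tested, so 7 of the 8 genes enter every count below.

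Among the membrane mucins Muc1 was the most abundant per length, and it made up most of the summed mucin RNA. Muc1 (ENSMUSG00000042784, chr3:89229057-89233381, plus strand) is a small membrane mucin of airway and alveolar type 2 cells whose tail binds signalling kinases. Its level averaged 117 CPM per kilobase in HDM lungs and 184 in those labelled saline at 12 weeks, and 83.4, 88.6 and 103 CPM per kilobase in saline, 10 µg and 100 µg lungs at 2 weeks. Of the mucin total per length it held 75.4 ± 6.29% and 73.6 ± 3.34% in the HDM and labelled saline lungs at 12 weeks, and 84.6 ± 4.05%, 87.8 ± 1.10% and 84.5 ± 6.74% in the saline, 10 µg and 100 µg lungs at 2 weeks. The difference was taken up mainly by Muc5b, which held 14.4 and 12.6% at 12 weeks and 4.68, 4.86 and 6.71% at 2 weeks in the same order. These shares add to 100% by construction.

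Per lung, Muc1 held 402, 192, 247, 314 and 219.9 CPM in HDM lungs at 12 weeks. In those labelled saline at 12 weeks it held 426, 549, 381, 418 and 387 CPM, and only HDM replicate 1 reached their range. At 2 weeks it held 183, 163, 146, 246 and 240.5 CPM with saline, and ranged from 183 to 227 CPM with 10 µg and from 203 to 284 CPM with 100 µg. Muc1 was lower in HDM lungs than in those labelled saline at 12 weeks by 0.65 log2 units (log2 fold change -0.65, SE 0.17, adjusted p = 0.0272). That call was lost in 5 of 10 fits that left out 1 library (adjusted p up to 0.101) and in a fit of those groups alone (adjusted p = 0.112). It rose by 1.15 (SE 0.17, adjusted p = 4.06e-06), 2.22-fold, in lungs labelled saline at 12 weeks against saline at 2 weeks. HDM lungs at 12 weeks and at 2 weeks did not differ past the threshold (0.19, 95% interval -0.16 to 0.53, adjusted p = 0.39).

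Muc4, a very large membrane mucin known to bind the receptor ErbB2, followed Muc1 at 12 weeks. It lies on chromosome 16 (ENSMUSG00000079620, chr16:32735886-32782391, plus strand). It held 117, 51.8, 65.2, 83.6 and 48.7 CPM in HDM lungs at 12 weeks, and 211, 252, 102, 134 and 151 CPM in labelled saline lungs at 12 weeks. HDM replicate 1 was again the one that reached the other group's range. At 2 weeks Muc4 held 32.7, 33.9, 37.8, 116 and 66.0 CPM with saline, 34.3, 40.9, 31.4, 37.5 and 30.7 CPM with 10 µg, and 28.3, 47.4, 44.3, 125 and 81.7 CPM with 100 µg. It was lower in HDM lungs than in those labelled saline at 12 weeks (-1.22, SE 0.36, adjusted p = 0.0385), a call lost in 6 of 10 fits that left out 1 library (adjusted p up to 0.132) and in a fit of those groups alone (adjusted p = 0.112). It was higher in lungs labelled saline at 12 weeks than in saline lungs at 2 weeks (1.61, SE 0.36, adjusted p = 0.00062). Within the 12-week model Muc1 and Muc4 had a Pearson r of 0.948 over 10 lungs on the log2 scale, and within the 2-week model 0.592 over 15, as a description of lungs that share group and library.

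Muc1 and Muc4 also moved with the mitochondrial share of the counts. That share was 2.5 to 4.21% in HDM lungs and 4.26 to 7.16% in lungs labelled saline at 12 weeks, with no overlap. Mitochondrial ribosomal RNA alone was 1.31 to 2.90% of the counts in those HDM lungs and 2.93 to 4.39% in those labelled saline. At 2 weeks the mitochondrial share was 1.99 to 3.59% in saline lungs without replicate 4, 3.25 to 4.02% with 10 µg and 3.27 to 6.64% with 100 µg. Across the 10 lungs of the 12-week model its Pearson r was 0.852 with Muc1, 0.882 with Muc4, 0.852 with Muc5b, 0.943 with Muc20, 0.702 with Mucl1 and 0.640 with Muc5ac. Over the 14 lungs of the 2-week model without saline replicate 4 the r was 0.883 with Muc1, 0.557 with Muc4, 0.514 with Muc5b, 0.657 with Muc20, 0.363 with Mucl1 and 0.567 with Muc5ac. Muc16 stood at 0.0615 and 0.105 in the 12-week and 2-week lungs. The part of this share in the differences of these mucins was not tested.

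**Figure D3:**
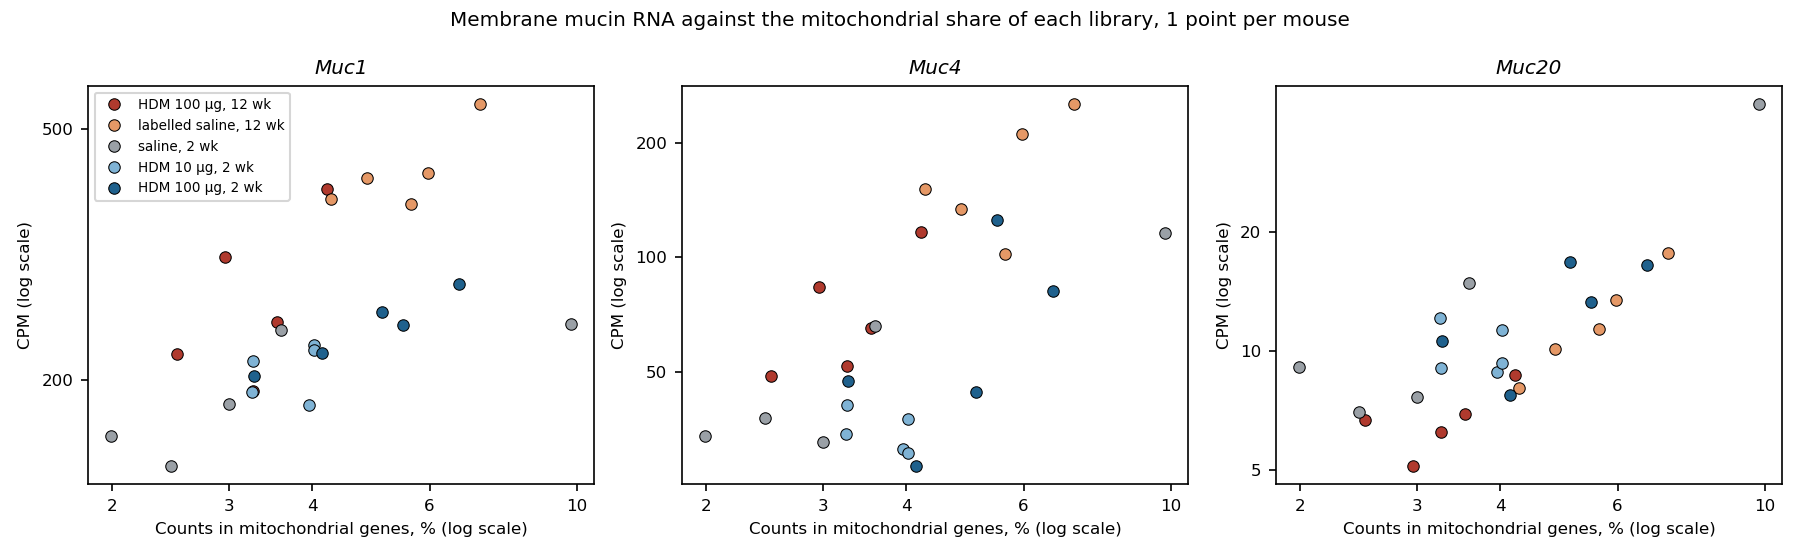
CPM of Muc1, Muc4 and Muc20 (log scale) against the share of each library's counts in mitochondrial genes in percent (log scale), 1 point per mouse, coloured by group. Higher shares go with higher mucin values within the 12-week model, where the HDM lungs lie between 2.5 and 4.21% and those labelled saline between 4.26 and 7.16%.

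For Muc1 and Muc4 the RefSeq promoter sequence was at hand (GRCm38.p6, the 250 bases before the annotated start), as for 5 of the 8 mucins, and the pair that moved together is shown. Capitals mark the motifs found in them, the TATA box TATAAA and the GC box GGGCGG, searched on both strands.
Muc1, chr3:89228806-89229055, plus strand: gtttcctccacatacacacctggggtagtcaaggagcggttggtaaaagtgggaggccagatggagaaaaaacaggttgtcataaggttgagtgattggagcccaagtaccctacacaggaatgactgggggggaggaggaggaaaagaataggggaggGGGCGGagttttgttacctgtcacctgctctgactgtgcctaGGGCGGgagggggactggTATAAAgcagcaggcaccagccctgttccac
Muc4, chr16:32735636-32735885, plus strand: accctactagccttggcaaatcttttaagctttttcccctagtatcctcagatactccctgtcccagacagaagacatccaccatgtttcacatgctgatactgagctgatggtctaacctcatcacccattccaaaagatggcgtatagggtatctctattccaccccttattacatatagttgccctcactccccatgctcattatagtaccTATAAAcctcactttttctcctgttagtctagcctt
TATAAA occurs 31 bases before the start of Muc1 and 36 bases before that of Muc4, and GGGCGG occurs 91 and 49 bases before that of Muc1. TATAAA is held by 12.4% of 32851 promoters of this length and GGGCGG by 32.7%. Muc2 also holds TATAAA, 174 bases before its start, and GGGCGG on the reverse strand, 52 bases before it. A STAT-type motif, TTC and GAA with any 4 bases between them, held by 5.85% of promoters, is not in the 5 windows. The forkhead motif TGTTTAC, held by 3.17%, is on the reverse strand of Muc20, 248 bases before its start. These are matches of letters, and no binding was measured.

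Muc16 and Muc20 were not called higher at 12 weeks in any comparison. Muc16 (ENSMUSG00000109564, chr9:18495455-18674530, minus strand), the largest of these genes and the source of the CA125 antigen, is made by airway epithelium and by mesothelium. It held 26.5, 31.1, 16.1, 27.3 and 33.7 CPM in HDM lungs at 12 weeks, against 40.1, 51.1, 34.0, 76.3 and 61.7 CPM in saline lungs at 2 weeks, with no overlap. It was lower there by 0.95 log2 units (log2 fold change -0.95, SE 0.29, adjusted p = 0.00783). In lungs labelled saline at 12 weeks, with 31.1, 32.5, 23.0, 28.6 and 46.1 CPM, it was lower than in saline lungs at 2 weeks at -0.69 (SE 0.29, adjusted p = 0.0469). That call was lost in 7 of 10 fits that left out 1 library, those without replicate 2, 4 or 5 of the saline lungs at 2 weeks or replicate 1, 2, 3 or 4 of those labelled saline at 12 weeks, where the change was -0.55 to -0.72 with adjusted p of 0.0573 to 0.122. With 10 µg it held 32.9 to 39.1 CPM. With 100 µg at 2 weeks it held 24.7 to 43.3 CPM in 4 lungs and 93.1 CPM in replicate 5. Summed mesothelial markers were 77.4 to 119 CPM in HDM lungs and 49.3 to 93.6 CPM in labelled saline lungs at 12 weeks, against 92.6 to 148 CPM in saline lungs at 2 weeks. Their part in the Muc16 values was not tested.

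Muc20, a small membrane mucin known to bind the receptor Met, overlaps Muc4 on the opposite strand. It lies at chr16:32777419-32797435 (ENSMUSG00000035638, minus strand), and 627 bases of exon are shared, 15.6% of those of Muc20 and 5.3% of those of Muc4. The libraries are stranded, but the strand setting of the counter is not given in the sources, so the values of both carry that uncertainty. Muc20 held 8.67, 6.21, 6.93, 5.11 and 6.66 CPM in HDM lungs at 12 weeks and 13.5, 17.7, 11.4, 10.1 and 8.04 CPM in labelled saline lungs at 12 weeks. At 2 weeks it held 7.63, 9.11, 6.99, 42.2 and 14.8 CPM with saline, 8.86 to 12.1 CPM with 10 µg and 7.71 to 16.8 CPM with 100 µg. The value of 42.2 CPM came from the shallow saline library, replicate 4. HDM lungs were lower at 12 than at 2 weeks (-0.95, SE 0.34, adjusted p = 0.0301), a call lost without replicate 3 or 5 of the 2-week group or replicate 4 of the 12-week group (-0.84, -0.85 and -0.90, with adjusted p of 0.0773, 0.0746 and 0.0629). Against saline at 2 weeks they were lower at -1.14 (SE 0.35, adjusted p = 0.00831), and at -0.55 (adjusted p = 0.0635) without saline replicate 4.

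Mucl1 had the largest relative difference within the 12-week model among the mucins. The human gene of this name encodes a small secreted mucin-like protein of breast and salivary gland. The mouse gene (ENSMUSG00000060311, chr15:103751919-103755469, minus strand) is protein coding in GENCODE and a transcribed pseudogene in RefSeq. It held 2.03, 0.518, 0.244, 1.96 and 0.743 CPM in HDM lungs at 12 weeks, and 7.39, 6.16, 2.56, 5.40 and 7.98 CPM in labelled saline lungs at 12 weeks, with no overlap. At 2 weeks it held 0.0392, 0.351, 0.173, 0.437 and 0.267 CPM with saline, 0.279 to 0.439 CPM with 10 µg and 0.118 to 0.918 CPM with 100 µg. These levels rest on 10 to 271 counts per library at 12 weeks and on 1 to 28 at 2 weeks, so Mucl1 passed the filter on low counts largely through the libraries in which it was high. It was lower in HDM lungs than in those labelled saline at 12 weeks at -2.44 (SE 0.46, adjusted p = 0.0175), 5.41-fold, a call lost in 5 of 10 fits that left out 1 library (adjusted p up to 0.0765) and in a fit of those groups alone (adjusted p = 0.112). The mitochondrial share of the counts, which did not overlap between these groups, had an r of 0.702 with Mucl1 over the 10 lungs, and its part in the difference was not tested. Lungs labelled saline at 12 weeks were higher than saline lungs at 2 weeks by 4.63 (SE 0.57, adjusted p = 4.12e-07), 24.8-fold. HDM lungs were higher at 12 than at 2 weeks by 1.72 (SE 0.53, adjusted p = 0.0128), a call lost without replicate 1 or 4 of the 12-week group (1.35 and 1.36, with adjusted p of 0.0562 and 0.0575) and in a fit of those groups alone (adjusted p = 0.0541). Salivary and submucosal gland markers summed to at most 7.18 CPM in any lung.

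Ordered by mean level, Muc1, Muc4, Muc5ac, Muc5b and Mucl1 all had the lungs labelled saline at 12 weeks at the top and the HDM lungs at 12 weeks next. These 12-week neighbours differed past the threshold for Muc1, Muc4 and Mucl1. The next step down, from HDM lungs at 12 weeks to 100 µg lungs at 2 weeks, passed for Muc5ac, Muc5b and Mucl1. No step between neighbouring 2-week groups passed for any of the 7. For Muc16 and Muc20 the saline lungs at 2 weeks were at the top, the HDM lungs at 12 weeks at the bottom, and no neighbours differed past the threshold. The top place of saline in Muc20 rests on replicate 4, without which its mean was 9.64 CPM in place of 16.2 CPM, below the means of 13.0 CPM with 100 µg at 2 weeks, 12.1 CPM in labelled saline lungs at 12 weeks and 10.1 CPM with 10 µg.

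The comparisons within the 2-week model asked what either dose did after a short exposure, and no mucin passed the test. With 10 µg against saline 0 of 7 were called, where 0.0407% of 19654 genes were. Of the 7, 0 had an unadjusted p under 0.05, beside 2457 of the 19654 genes. Groups overlapped for all 7, and did not for 3.34% of genes. DESeq2 and limma-voom also called 0. The log2 fold changes were 0.26 for Muc5ac (95% interval -0.93 to 1.46), 0.12 for Muc5b (-0.76 to 0.99), 0.09 for Muc1, -0.67 for Muc4, -0.58 for Muc16, -0.55 for Muc20 and 0.42 for Mucl1. With 100 µg against saline 0 of 7 were called by edgeR, DESeq2 or limma-voom, where 8.13% of genes were called by edgeR, and the groups overlapped for all 7 but not for 6.5% of genes. The gel-forming pair, 2 of the 7, had an unadjusted p under 0.05, as did 4791 of the 19654 genes. Muc5ac stood at 1.18 (SE 0.56, 95% interval 0.03 to 2.32, adjusted p = 0.191) and Muc5b at 0.98 (SE 0.43, interval 0.10 to 1.87, adjusted p = 0.155). Without replicate 1 of the 100 µg lungs, Muc5b passed at 1.28 (adjusted p = 0.0168). Without replicate 5, Muc16 passed at -0.76 (adjusted p = 0.0485). Between 100 µg and 10 µg 0 of 7 were called, and 0% of all genes by edgeR, of which 1666 had an unadjusted p under 0.05. DESeq2 and limma-voom called 0 mucins too. The groups overlapped for all 7 and did not for 1.81% of genes. Muc4 was the 1 mucin with an unadjusted p under 0.05, at 0.90 (SE 0.36, adjusted p = 0.49).

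At 12 weeks, HDM lungs against those labelled saline gave 3 of 7 mucins called, all lower, where 8.36% of genes were called, 4.29% higher and 4.08% lower. They were Muc1, Muc4 and Mucl1, with the values above. Mucl1 was the 1 mucin whose groups did not overlap, as held for 5.19% of genes, 3.4% higher and 1.79% lower. The gel-forming mucins were below the lungs labelled saline without passing, Muc5ac at -0.82 (SE 0.39, 95% interval -1.61 to -0.02, adjusted p = 0.159) and Muc5b at -0.59 (interval -1.46 to 0.27, adjusted p = 0.351). Muc20 stood at -0.86 (adjusted p = 0.0997) and Muc16 at -0.26 (adjusted p = 0.566). The member median was -0.82, beside 0.01 over all genes tested. These calls depended on the set of libraries. All 3 were lost without replicate 2, 3 or 5 of the HDM lungs or replicate 1 or 2 of those labelled saline, and Muc4 also without replicate 5 of the lungs labelled saline. With 1 library left out the changes were -0.84 to -0.55 for Muc1, -1.46 to -1.03 for Muc4 and -2.79 to -2.19 for Mucl1, with adjusted p up to 0.101, 0.132 and 0.0765. In a fit of those 10 libraries alone 0 of 18791 genes of any kind were called.

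Across the models the counts of called mucins stood beside a large share of all genes. In lungs labelled saline at 12 weeks against saline at 2 weeks, 5 mucins were higher and 1 was lower of 7, where 54.1% of genes were called, 28.5% higher and 25.6% lower. Groups did not overlap for Muc1, Muc5ac, Muc5b and Mucl1, all of them higher, as held for 33.1% of genes in either direction and 17.8% in that one. The member median was 1.61, beside 0.04 over all genes. In HDM lungs at 12 against 2 weeks 3 mucins were higher (Muc5ac, Muc5b and Mucl1) and 1 lower (Muc20), where 38.5% of genes were called, 22.1% higher and 16.4% lower. Muc5ac was the 1 mucin without overlap there, as held for 23.6% of genes (14.4% in the higher direction), and the median was 0.19, beside 0.02. Muc16 stood at -0.68 (adjusted p = 0.0633) in that comparison, and it was called, between -0.59 and -0.84, in 9 of the alternatives run. HDM lungs at 12 weeks against saline at 2 weeks gave 4 higher and 2 lower, where 53.7% of genes were called, 29.4% higher and 24.4% lower. The higher ones were Muc1 at 0.49, Muc5ac at 5.69, Muc5b at 2.24 and Mucl1 at 2.20, and the lower ones Muc16 and Muc20, with Muc4 at 0.40 (adjusted p = 0.362). The call of Muc1 was lost without replicate 2 or 3 of the saline lungs or replicate 1 or 4 of the HDM lungs (0.40, 0.41, 0.29 and 0.42, with adjusted p of 0.0631, 0.0503, 0.127 and 0.0561). Groups did not overlap for Muc5ac, Muc5b and Muc16, as held for 38.7% of genes, 21.9% higher and 16.8% lower. These comparisons share groups, so their counts are not independent of each other.

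**Figure D4:**
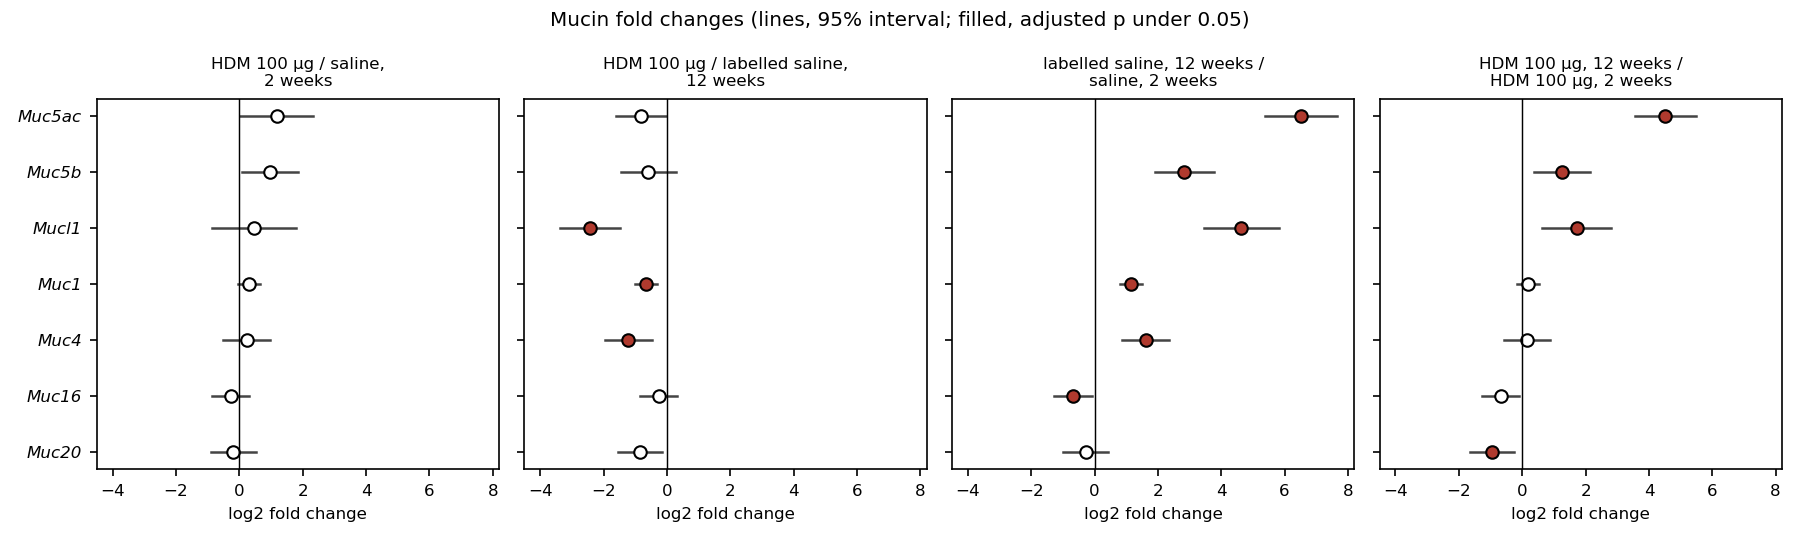
Log2 fold change with its 95% interval for the 7 mucins tested in 4 comparisons, each with the group named first over the group named second; filled points have an adjusted p under 0.05 in edgeR's quasi-likelihood test. Muc5ac stands at 6.51 and 4.52 in the comparisons of 12 with 2 weeks and crosses no threshold within either model.

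The effect of 100 µg was compared between the models as a difference of log2 fold changes, 12 weeks minus 2 weeks, and 2 of 7 mucins passed, both lower, where 8.26% of genes did and 3.52% were lower. Muc1 differed by -0.96 (SE 0.23, adjusted p = 0.0151), from -0.65 at 12 weeks and 0.31 at 2 weeks. Mucl1 differed by -2.91 (SE 0.79, adjusted p = 0.0255), from -2.44 at 12 weeks and 0.47 at 2 weeks. The Mucl1 call was lost without replicate 5 of the 100 µg lungs at 2 weeks (-2.11, adjusted p = 0.101), without replicate 5 of the HDM lungs at 12 weeks (-2.83, adjusted p = 0.0504) and in a fit of the 4 groups alone (-2.94, adjusted p = 0.051). Muc5ac at -1.99 (adjusted p = 0.0649), Muc4 at -1.45 (adjusted p = 0.0707) and Muc5b at -1.58 (adjusted p = 0.0976) did not pass. Each of them passed without replicate 1 of the 100 µg lungs at 2 weeks (adjusted p = 0.0261, 0.0321 and 0.0118 in that order). Muc5ac and Muc4 also passed without saline replicate 4 at 2 weeks (adjusted p = 0.0287 and 0.015) and without replicate 3 of the lungs labelled saline at 12 weeks (adjusted p = 0.047 and 0.0428). Muc4 passed without replicate 1 of the HDM lungs at 12 weeks (adjusted p = 0.029), and Muc5ac without replicate 2 of those (adjusted p = 0.0279) or replicate 5 of those labelled saline at 12 weeks (adjusted p = 0.0483). Muc20 stood at -0.67 (adjusted p = 0.398) and passed without saline replicate 4 at 2 weeks (-1.30, adjusted p = 0.0161). All of these differences use the lungs labelled saline at 12 weeks as the base. The mitochondrial share of the counts was lower in HDM lungs than in those labelled saline at 12 weeks. At 2 weeks it was 3.27 to 6.64% with 100 µg, and 1.99 to 3.59% with saline outside replicate 4, which held 9.80%. The part of this share in the differences was not tested.

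Within each model the genes most like a mucin across lungs were named by the smaller of 2 Pearson correlations of log2 CPM, over the 15 lungs at 2 weeks and the 10 at 12 weeks, among 13860 genes. They are descriptions of lungs that share groups and libraries. For Muc5ac the closest gene was Muc5b (r = 0.791 at 2 weeks and 0.883 at 12 weeks), followed by Atp10b, a lipid flippase, and the non-coding RNA Tsix. For Muc5b they were Cfap54, a protein of ciliary axonemes, Sobp, and Bpifb1, a secreted protein of airway secretory cells (r = 0.877 and 0.835). Muc4 went with the chromatin regulators Ep300 (r = 0.942 and 0.941), Arid1a and Ncoa6, and Muc1 with the mitochondrial carrier Slc25a23 (r = 0.879 and 0.894), Cnot3 and Kansl1. Muc20 went with the mitochondrial genes mt-Nd4 (r = 0.909 and 0.947), mt-Nd5 and mt-Nd2, and without saline replicate 4 the r of mt-Nd4 at 2 weeks was 0.731. Muc16 went with Pkhd1l1, the anion exchanger Slc26a4 and the ephrin receptor Epha7. Mucl1 went with the adenosine receptor Adora3 (r = 0.820 and 0.823), Mybl2 and Fut2, a fucosyltransferase that acts on mucin sugars.

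Genes that work with mucins were followed in 7 lists. The counts of called genes in lungs labelled saline at 12 weeks against saline at 2 weeks stand beside 28.5% higher and 25.6% lower over all genes tested. In lungs labelled saline at 12 weeks against saline at 2 weeks, goblet cell secreted products had 8 of 10 tested genes higher and 1 lower, with a median of 2.81 beside 0.04 over all genes. Itln1, counted among the 8, had no counts in saline lungs at 2 weeks, so it passed the filter on low counts through other libraries. Pigr, Ltf and Dmbt1 are also among the 8, and in bulk lung the cells that made a transcript were not identified. Fcgbp, a protein that binds within the mucus gel, averaged 84.7 ± 31.0 CPM in HDM lungs and 116 ± 41.3 CPM in labelled saline lungs at 12 weeks, against 2.69 ± 0.330 CPM in saline lungs at 2 weeks (5.45 log2 units between the saline labels, adjusted p = 3.85e-09). Clca1 rose by 6.97 (adjusted p = 0.000134) and Pigr, which carries IgA across the epithelium, by 2.70. Agr3 was the gene that was lower (-0.81), and Bpifa1 stood at -1.53 (adjusted p = 0.215). Of 14 goblet cell differentiation genes 7 were higher and 5 lower (all genes 28.5 and 25.6%), among them Spdef, the transcription factor of goblet cells, at 1.91, Ern2, a stress sensor of mucin-making cells, at 4.82, Notch2 at 0.55 and Gabrp at -1.05. Spdef averaged 2.91 ± 1.23 CPM in HDM lungs and 2.60 ± 0.904 CPM in labelled saline lungs at 12 weeks, against 0.737 ± 0.256 CPM in saline lungs at 2 weeks. Ern2 had 11 counts in all over the saline libraries at 2 weeks and 384 over those labelled saline at 12 weeks. Over the same libraries Foxa3 had 18 and 176. Both passed the filter on low counts largely through the 12-week libraries. The number of differentiation genes higher at 12 weeks is therefore partly set by the filter.

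Mucin O-glycosylation genes were higher in 13 and lower in 7 of 25 tested, with a median of 0.40, where 28.5% of all genes were higher and 25.6% lower, so the share that was lower was near that of all genes. Galnt6 and Galnt10, which start O-glycan chains, stood at 1.46 and 0.84, Fut2 at 3.24, and C1galt1c1, the chaperone of the enzyme that extends the chain, at -0.70. Genes of granule exocytosis and hydration were higher in 5 and lower in 5 of 17, near the shares of all genes in both directions. Slc26a4 (pendrin), an anion exchanger, averaged 94.0 ± 45.0 CPM in HDM lungs and 149 ± 65.7 CPM in labelled saline lungs at 12 weeks, against 3.84 ± 0.732 CPM in saline lungs at 2 weeks (5.29 log2 units between the saline labels, adjusted p = 4.83e-10). The sodium channel subunits Scnn1b and Scnn1g were lower, at -1.15 and -0.89, as was Unc13b, a priming factor of granule release, at -0.52. Membrane mucin partners and sheddases were higher in 4 and lower in 3 of 11, with the galectin gene Lgals3 at 1.85, the protease gene Mmp14 at 1.61, Src at 0.52 and Egfr at -0.76. Other mucin and mucin-like genes were higher in 2 (Muc19 at 0.90 and Mucl3 at 0.67) and lower in 2 (Emcn at -0.70 and Cd164 at -0.25) of 6.

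Upstream cytokines and their receptors were higher in 7 and lower in 2 of 13, with a median of 0.67, where 28.5% of all genes were higher and 25.6% lower. Il13, the type 2 cytokine known to induce Muc5ac, averaged 0.532 ± 0.298 CPM in HDM lungs and 0.823 ± 0.534 CPM in labelled saline lungs at 12 weeks, against 0.0539 ± 0.102 CPM in saline lungs at 2 weeks. Il4 rose by 3.41, the decoy receptor gene Il13ra2 by 2.53 and the alarmin gene Il33 by 0.93. Il17a had 1 count in all over the saline libraries at 2 weeks and 233 over those labelled saline at 12 weeks. Over the same libraries Il4 had 21 and 259, Il13 had 7 and 139, and Il13ra2 had 16 and 113. These cytokine and receptor genes passed the filter on low counts largely through the 12-week libraries. The number of genes higher at 12 weeks in this list is therefore partly set by the filter. In HDM lungs at 12 against 2 weeks 22.1% of all genes were higher and 16.4% lower. There, goblet cell secreted products were higher in 6 and lower in 1 of 10, O-glycosylation genes higher in 12 and lower in 5 of 25, and cytokines and receptors higher in 7 and lower in 1 of 13. Differentiation genes were higher in 6 and lower in 3 of 14, partners and sheddases in 4 and 1 of 11, exocytosis and hydration in 4 and 4 of 17, and other mucin genes in 1 and 2 of 6.

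**Figure D5:**
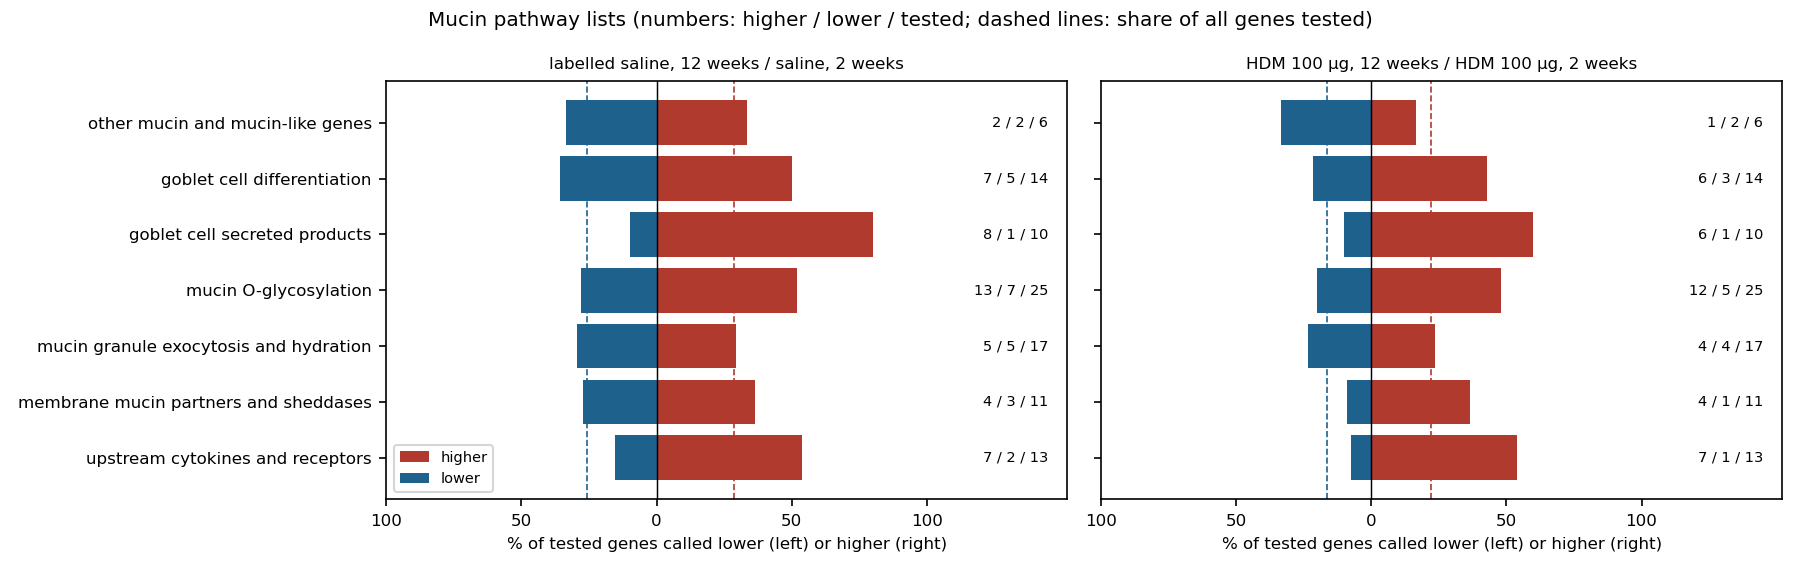
Share of the tested genes of each of 7 mucin-related lists called higher (right of 0) or lower (left of 0) in 2 comparisons of 12-week with 2-week lungs, in percent; dashed lines give the same shares over all genes tested. Goblet cell secreted products reach 8 of 10 higher in lungs labelled saline and 6 of 10 in HDM lungs, above the dashed lines at 28.5 and 22.1%. The lists were chosen with earlier results of these data known, so this is a description and no independent support. Itln1, among the 8, had no counts in saline lungs at 2 weeks and passed the filter on low counts through other libraries.

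Within the models the list counts were as follows. At 10 µg 0 of the 96 tested genes of the 7 lists were called by edgeR, where 0.0407% of all genes were. Of the 96, 8 had an unadjusted p under 0.05, beside 2457 of all 19654 genes tested. There limma-voom called 0 and DESeq2 called 1, in the exocytosis and hydration list. With 100 µg against saline at 2 weeks 1 was higher, Galnt10 at 0.43, and 4 were lower, C1galt1c1 at -0.38, Unc13b at -0.29, the chloride importer gene Slc12a2 at -0.34 and Egfr at -0.40, where 8.13% of all genes were called. Goblet cell secreted products had 0 of 10 called and a median of 0.94 there, beside -0.00036 over all genes. In HDM lungs against those labelled saline at 12 weeks, where 8.36% of all genes were called, the genes Hes1 (0.55), Klf4 (0.86) and Ctnnb1 (0.25) were higher. Gcnt1 (-0.56), the chloride channel gene Cftr (-0.69), Il13ra2 (-1.28) and Muc19 (-1.26), a gel-forming mucin known from salivary glands, were lower. None of these 7 was called in a fit of those groups alone, in which 0 genes passed.

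Markers of other cells were read against the same shares of all genes, 28.5% higher and 25.6% lower. In lungs labelled saline at 12 weeks against saline at 2 weeks club cell markers were lower in 5 of 6, and their summed level was 6952 to 16266 CPM in HDM lungs and 6463 to 12273 CPM in labelled saline lungs at 12 weeks, against 19094 to 48075 CPM in saline lungs at 2 weeks. Scgb1a1, the club cell secretoglobin, stood at -1.66 and Cyp2f2 at -1.64. Ciliated cell markers were lower in 4 of 6 (Tppp3 at -1.26), mesothelial markers in 3 of 6 (Upk1b at -1.34), alveolar type 1 markers in 2 of 5 and pan-epithelial markers in 2 of 5 (Epcam at -0.51). Alveolar type 2 markers were higher in 2 and lower in 2 of 7, gland markers higher in 1 and lower in 1 of 2 tested, and basal markers higher in 1 of 3, while squamous markers were too low to test. Eosinophil markers were higher in 4 of 5, with Ccr3 at 22.1 ± 12.1 CPM in HDM lungs and 36.0 ± 9.27 CPM in labelled saline lungs at 12 weeks, against 4.48 ± 1.51 CPM in saline lungs at 2 weeks. Epx, the eosinophil peroxidase gene, was not called (0.88, adjusted p = 0.303). Macrophage markers were higher in 4 and lower in 1 of 5. The part of these cell types in the mucin values was not tested.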

How the data were processed

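Total RNA of lungs from 25 mice was made into TruSeq Stranded Total RNA libraries, per the labels' protocols, and processed with STAR 2.5.3a and GRCm38, per the submitters' processing notes. The deposited values are raw counts per Ensembl gene, made by the authors with 1 column per mouse. Which counting tool, strand option and annotation release were used is not given in the sources used here.

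A gene name table gave symbols for 99.5% of 55421 genes, and GENCODE M21 gave positions and exon lengths. Library sizes were scaled by TMM, genes were kept by edgeR's filterByExpr (19654 genes, 7 of the 8 mucins), and all 25 libraries were fitted in 1 model with edgeR 4.0.16 (R 4.3.3) by its quasi-likelihood test, with Benjamini-Hochberg adjustment over all genes tested and a threshold of 0.05. Every adjusted p, interval and log2 fold change in the text comes from that test unless another is named. The steps were tested on simulated data. Correlations used log2 CPM with a prior count of 2. The lowest chi-square per degree of freedom between any of the 300 pairs of libraries was 12.4, so none was deposited in 2 copies. The labels give 1 mouse per library, and p-values measure the spread between mice. Samples were grouped by their labels.

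Alternatives were other scalings, other filters, limma-voom (limma 3.58.1), DESeq2 1.42.0, a replicate block, a fit of the compared groups alone and leaving out each library.

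The mucins and the gene lists were chosen with earlier results of these data known. From each list the text names up to 4 genes with the smallest p in lungs labelled saline at 12 weeks against saline at 2 weeks, in 100 µg against saline at 2 weeks and in HDM against labelled saline at 12 weeks. Other list genes named, such as Clca1, Itln1, Il13, Il17a and Scgb1a1, were chosen after their values were seen. Coding sequences are from GENCODE M21 and promoters from RefSeq.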

Additional observations from a re-analysis of the deposited data

Results flagged for a closer look

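Single lungs stood far from the other 4 of their group in 7 of 40 sets of a mucin in a group. A rate of about 1 in 20, or 2, holds only for independent values with a normal distribution. These values are CPM on a linear scale, and some sets share a library, so no excess over chance is shown. Replicate 4 of the saline lungs at 2 weeks, the shallow library with 27.8% ribosomal RNA, held 4.37 CPM of Muc5ac, with the next highest at 0.940, and 42.2 CPM of Muc20, with the next at 14.8. Replicate 2 of the HDM lungs at 12 weeks held 113 CPM of Muc5ac, with the next at 42.7. Replicate 5 of the 100 µg lungs at 2 weeks held 93.1 CPM of Muc16, with the next at 43.3, and 0.918 CPM of Mucl1, with the next at 0.266. Replicate 2 of the lungs labelled saline at 12 weeks held 549 CPM of Muc1, with the next at 426. Replicate 5 of the 10 µg lungs held 0.439 CPM of Mucl1, with the next at 0.286.

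The effect of 100 µg differed between the models for 2 mucins in edgeR's test of the difference, at -0.96 for Muc1 and -2.91 for Mucl1 (12 weeks minus 2 weeks), and the 12-week effect uses the lungs labelled saline whose goblet cell markers go against the label. The part of the mitochondrial share of the counts in these differences was not tested.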

How the results depend on the processing

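Of 56 results for single mucins, 21 were called, and none of the 21 changed direction under any alternative run. Over all 1075 alternative values 966 kept direction and side of the threshold, 49 lost the call, 26 gained one and 34 changed sign. Without replicate 4 the saline means at 2 weeks were 9.64 in place of 16.2 CPM for Muc20 and 0.880 in place of 1.58 CPM for Muc5ac, and without replicate 5 the mean of Mucl1 with 100 µg at 2 weeks was 0.187 in place of 0.334 CPM. Fitting the compared groups alone gave 0 mucins called at 12 weeks (3 with all libraries), 2 in HDM lungs at 12 against 2 weeks (4) and 1 for the difference of effects (2), which was 4 without a filter on low counts; those fits hold fewer libraries. With 1 library left out the counts were 0 to 1 for 100 µg against saline at 2 weeks, 0 to 3 for HDM against labelled saline at 12 weeks, 2 to 5 for HDM lungs at 12 against 2 weeks, and 1 to 5 for the difference.

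Signs changed in results that were not called. With 10 µg, Muc5ac was -0.17 in DESeq2, and with 1 library left out Muc5b was -0.083 to 0.24 and Muc20 -0.74 to 0.079. With 100 µg against saline, Muc20 was 0.23 in limma-voom and -0.39 to 0.44 with 1 left out, Muc4 -0.14 to 0.63 and Mucl1 -0.33 to 0.77. Between the doses Mucl1 was -0.29 in limma-voom and -0.74 to 0.28, and Muc16 -0.19 to 0.45. In labelled saline at 12 weeks against saline at 2 weeks Muc20 was 0.17 in limma-voom and -0.48 to 0.32. In HDM lungs at 12 against 2 weeks Muc1 was -0.029 to 0.26 and Muc4 -0.11 to 0.54. The difference of Muc16 was -0.018 with DESeq2 size factors, -0.033 with upper-quartile scaling, -0.0081 without a filter, -0.023 with a stricter one, -0.0029 in DESeq2, -0.012 with the groups alone and -0.17 to 0.50 with 1 left out. The cause was not tested.

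No pairing of the mice by replicate number was detected: same-numbered libraries of different groups correlated at a median of 0.0003, and 4 of 25 libraries correlated best with their own number. A weak pairing would not show in these values. With the replicate block the mucins called were 0, 0 and 0 within 2 weeks, 3 within 12 weeks, 6 for labelled saline and 5 for HDM lungs between the models, 6 for HDM at 12 weeks against saline at 2 weeks and 2 for the difference. The 1 call it added was Muc16 in HDM lungs at 12 against 2 weeks (-0.59, adjusted p = 0.0388).

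Over all genes, 10 µg gave 8 calls, against 202 in DESeq2, 2 with its size factors or without a filter, 3 with upper-quartile scaling and 0 in limma-voom or with the groups alone. With 100 µg at 2 weeks there were 1597, against 723 without a filter and 244 with the groups alone. At 12 weeks there were 1644, against 3072 in limma-voom, 2931 in DESeq2 and 0 with the groups alone. The difference gave 1624, against 919 without a filter, 2459 in DESeq2 and 978 with the groups alone. Depth limits Muc2 and, at 2 weeks, Mucl1.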
